A study of Mus musculus with 27 samples.

Results

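Hair follicle melanocytes are the pigment cells of the hair bulb, and 153 cells of anagen VI (AnaVI) mouse back skin were taken as such from 28373 kept cells. A cell was a melanocyte when the genes Pmel, Dct, Tyrp1 and Mlana together took at least 0.2% of its unique molecular identifiers (UMIs, one per captured RNA molecule), when at least 3 of these 4 genes were detected, and when Mlana had at least 2 UMIs. Mouse 1 gave 95 of 14458 kept cells, or 0.657% (exact 95% interval 0.532 to 0.803%), and mouse 2 gave 58 of 13915, or 0.417% (0.317 to 0.539%). Of 32589 deposited barcodes, those with fewer than 500 genes, fewer than 1000 UMIs or 10% or more mitochondrial UMIs were left out. The study has 27 samples, and the melanocytes came from the 2 single cell libraries of back skin of wild-type, untreated mice at postnatal day 32, 1 library per mouse. Per the study's methods, the skin cells were sorted to enrich for CD45-CD31-CD140a-CD117- cells after digestion with collagenase and trypsin, and CD117 is the protein of Kit, a gene that melanocytes are known to use. The other samples were not part of this population, apart from 2 single cell libraries and 8 RNA-seq libraries of cultured hair follicle stem cells (HFSCs), in which the same genes were looked up. These RNA-seq libraries covered wild-type and Rxra cKO HFSCs grown in serum (FBS) or in all-trans retinoic acid with a protein kinase C inhibitor (atRA+PKCi), 2 libraries per group. Those RNA-seq lines came from telogen skin at postnatal day 55, and the single cell cultures from the AnaVI mice. Strain and sex of the 2 AnaVI mice were not given in the sources used here.

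Melanocytes descend from the neural crest and, in the growing hair bulb, sit among the matrix keratinocytes over the dermal papilla. They build melanosomes, organelles related to lysosomes, in which amyloid fibrils of the PMEL protein carry melanin made from tyrosine by tyrosinase (Tyr), dopachrome tautomerase (Dct) and Tyrp1. The filled melanosomes move along microtubules and actin into dendrites and pass to keratinocytes that form the hair shaft. The transcription factor MITF is known to bind the sequence CATGTG, called the M-box, and the related CACGTG ahead of pigment genes.

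The Dct, Tyrp1 and Tyr promoters are shown because their genes encode the enzymes of melanin synthesis, and each held CATGTG in the RefSeq window from 250 bases before to 50 bases after the gene start (GRCm38.p6). The window of Dct lay at chr14:118052197-118052496 on the minus strand, that of Tyrp1 at chr4:80833963-80834262 on the plus strand, and that of Tyr at chr7:87493463-87493762 on the minus strand. All 3 are written 5′ to 3′ along the gene, and capitals mark CATGTG or its reverse complement CACATG.
Dct: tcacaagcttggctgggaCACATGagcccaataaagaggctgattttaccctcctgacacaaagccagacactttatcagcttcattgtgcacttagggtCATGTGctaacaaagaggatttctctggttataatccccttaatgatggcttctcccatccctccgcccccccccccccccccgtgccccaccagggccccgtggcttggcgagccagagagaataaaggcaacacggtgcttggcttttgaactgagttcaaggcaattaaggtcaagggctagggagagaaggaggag
Tyrp1: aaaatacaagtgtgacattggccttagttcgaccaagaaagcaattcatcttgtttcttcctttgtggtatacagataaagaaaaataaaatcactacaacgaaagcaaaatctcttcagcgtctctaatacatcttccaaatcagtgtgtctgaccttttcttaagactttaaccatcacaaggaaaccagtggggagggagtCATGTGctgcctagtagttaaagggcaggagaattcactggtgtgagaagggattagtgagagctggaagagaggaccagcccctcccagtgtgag
Tyr: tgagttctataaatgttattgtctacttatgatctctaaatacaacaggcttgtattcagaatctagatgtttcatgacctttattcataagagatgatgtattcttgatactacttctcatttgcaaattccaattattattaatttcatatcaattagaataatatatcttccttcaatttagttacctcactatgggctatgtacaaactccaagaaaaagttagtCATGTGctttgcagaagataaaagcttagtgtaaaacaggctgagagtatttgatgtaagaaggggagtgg
The match in Tyr began 21 bases before the RefSeq gene start and the match in Tyrp1 46 bases before it. The Ensembl gene of Tyrp1 starts at 80834123, ahead of that match, so the distance depends on the annotation. Dct held CATGTG 150 bases before the start and CACATG, its form on the opposite strand, 232 bases before it. CATGTG on either strand stood in 4650 of 32851 promoter windows, or 14.2%, and CACGTG, which reads the same on both strands, in 2349, or 7.15%. The table held 20 windows for 16 of the 20 rule and melanin synthesis genes, in which 8 genes had CATGTG (Cited1, Dct, Oca2, Slc24a5, Slc7a11, Trpm1, Tyr and Tyrp1) and 3 had CACGTG (Atp7a, Slc24a4 and Trpm1). Pmel and Mlana had no entry in the table. A match is a string of letters and was not tested as a binding site.

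The libraries held 139504947 UMIs in kept cells of mouse 1 and 159290929 in mouse 2, of which melanocytes took 997738 and 895097. Melanocytes had a median of 11022 UMIs and 3536 genes in mouse 1 and of 14955 UMIs and 4337.5 genes in mouse 2, against 8014 and 9686 UMIs in all other kept cells. Their median mitochondrial share was 5.79 and 5.89%, above the 3.29 and 3.01% of all other kept cells and the 4.16 and 4.02% of matrix keratinocytes. Scrublet marked 11 of 95 melanocytes (11.6%) as doublets in mouse 1 and 0 of 58 in mouse 2. Of all kept cells it marked 833 (5.76%) and 307 (2.21%), so the share in mouse 1 was higher among melanocytes. Marked cells were kept. The 2 libraries shared 62 barcodes, none of them a melanocyte. As each mouse gave 1 library, a difference between mice and one between libraries cannot be told apart.

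The 4 genes that chose the cells took a median of 5.12% of the UMIs of a melanocyte in mouse 1 (0.2002 to 8.61%) and 4.05% in mouse 2 (0.418 to 7.61%). Dct had the highest medians, 235 UMIs per cell in mouse 1 and 318.5 in mouse 2. Pmel followed with 140 and 127, Mlana, a melanosomal membrane protein, with 116 and 86, and Tyrp1 with 59 and 69.5. At 4% or more stood 66 and 30 cells, and at 2 to 4% stood 13 and 15, so that 16 and 13 cells lay under 2%. The lowest cell inside the rule held 0.2002% in mouse 1 (6494 UMIs, with Pmel at 2, Dct at 4, Tyrp1 at 1 and Mlana at 6) and 0.418% in mouse 2 (13156 UMIs, with 4, 44, 2 and 5). The highest cell left out by its share alone held 0.156% in mouse 1 and 0.116% in mouse 2, and 11 and 6 cells were left out in this way. A further 7 and 22 cells had the share but fewer than 3 of the genes, and 23 and 21 cells missed the Mlana minimum alone.

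**Figure D1:**
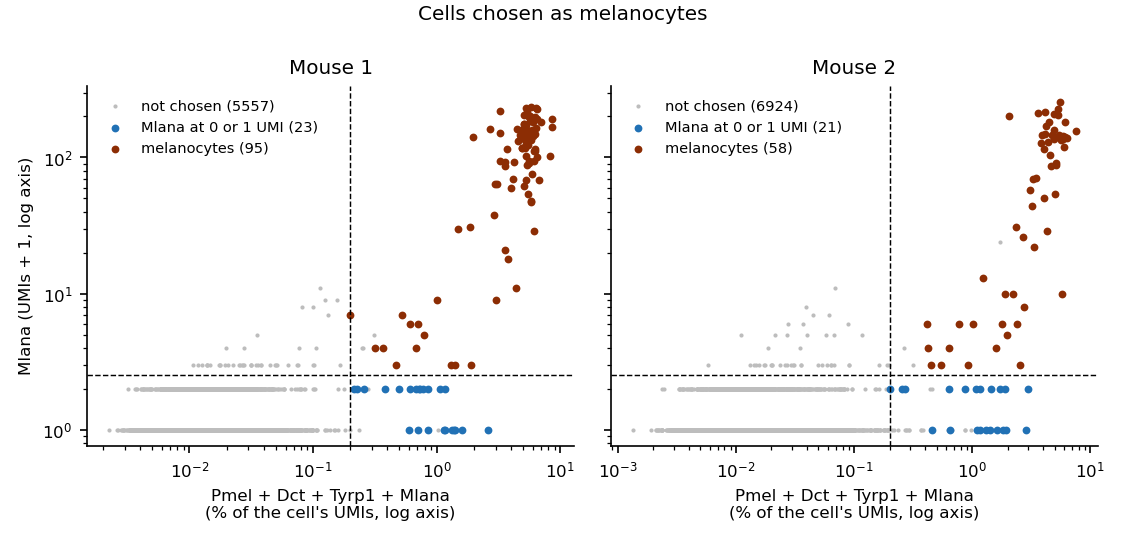
Each point is a kept cell of mouse 1 (left) or mouse 2 (right) with at least 1 UMI of Pmel, Dct, Tyrp1 or Mlana. The x axis gives their share of the cell's UMIs in percent and the y axis Mlana UMIs plus 1, both on log axes, and dashed lines mark the limits of 0.2% and 2 UMIs. The 95 and 58 melanocytes are in brown, most of them at 2% or more, and the 23 and 21 cells below the Mlana limit alone are in blue.

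The label was checked with Kit, a pigment cell marker that the rule did not read, which was found in 83 of 95 and 51 of 58 cells, with medians of 6 and 7 UMIs. It was found in 14.4 and 14.5% of the kept cells that were not melanocytes. Its level was 630.4 and 519 CPM, UMI counts scaled to a common total, in melanocytes although the sort was set against its protein. The other gate genes were also present in the libraries, with Ptprc (CD45) in 2.55 and 5.42% of kept cells, Pecam1 (CD31) in 2.25 and 3.53% and Pdgfra (CD140a) in 44.7 and 55.7%. Markers of other cells were summed as well. The 5 Schwann markers, Sox10 among them, summed to 476 and 447 CPM in melanocytes against 14358 and 16976 CPM in Schwann cells, and the 6 fibroblast markers to 2795 and 6050 CPM against 30172 and 39729 CPM in all other kept cells. None of the fibroblast markers was at 0, and in the 16 and 13 melanocytes with under 2% in the rule genes they summed to 4098 and 14153 CPM, against 2665 and 4390 CPM in the others. The 5 basal keratinocyte markers summed to 258 and 459 CPM (1810 and 1384 in all other kept cells), the 7 inner root sheath markers to 195 and 447 CPM (811 and 415, so not lower in mouse 2) with Krt72 at 0, and the 5 dermal papilla markers to 68.2 and 135 CPM (239.7 and 253) with Prss35 at 0. Matrix markers summed to 397 and 318 CPM in melanocytes and 1175 and 1126 CPM in matrix keratinocytes. In all other kept cells, which exclude matrix keratinocytes, they summed to 175 and 163 CPM. Most of the sum in melanocytes was Lef1 (337 and 270 CPM), which melanocytes are known to use, and Shh was at 0. Hair shaft keratins were at 0 for 8 and 7 of the 9 counted, and the endothelial markers summed to 3.01 and 5.59 CPM with Cdh5 and Emcn at 0. The 6 immune markers summed to 32.1 and 33.5 CPM (249.2 and 396 in all other kept cells) with Tyrobp and Cd3e at 0, the 5 mural markers to 59.1 and 109 CPM (312 and 325), and the 5 suprabasal markers to 49.1 and 39.1 CPM (335 and 211). Mast cells also use Kit, and of their markers Cpa3, Mcpt4, Cma1 and Fcer1a were at 0. The 5th, Tpsb2, went the other way, with 69 and 24 UMIs in 34 and 17 melanocytes. Its level was 69.2 and 26.8 CPM, against 1.67 and 0.0788 CPM in all other kept cells. It was found in 35.8 and 29.3% of melanocytes and in 0.244 and 0.0794% of the kept cells that were not melanocytes.

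UMIs of the rule genes were not confined to melanocytes, as 39.3 and 50.3% of kept cells held at least 1. Dct was found in 51.4 and 53.4% of matrix keratinocytes (medians of 11889.5 and 14378 UMIs) and in 19.5 and 30.6% of all other kept cells (8014 and 9686 UMIs). Pmel was found in 10.1 and 14.4% of matrix keratinocytes and in 8.44 and 13.0% of all other kept cells. The make-up of these UMIs differed between classes. Dct made up 42.1% (exact 95% interval 41.6 to 42.5%) and 51.9% (51.4 to 52.5%) of the UMIs of the 4 genes in melanocytes, 80.5% (79.3 to 81.7%) and 76.7% (75.3 to 78.0%) in matrix keratinocytes, and 59.0% (57.6 to 60.3%) and 62.8% (61.8 to 63.7%) in all other kept cells. Mlana made up 21.7 and 15.3% in melanocytes and 5.13 and 3.74% in matrix keratinocytes. Matrix keratinocytes were limited to under 0.05% of UMIs in these genes by their own rule. These intervals cover counting error only, and the part of free RNA in these UMIs was not tested.

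For tests, UMIs were summed over the cells of each of 4 classes that share no cell, giving 1 sum per mouse and class. These were the melanocytes, 18 and 45 Schwann cells (81560 and 259536 UMIs), 3422 and 2811 matrix keratinocytes and 10923 and 11001 other kept cells. Schwann cells, the glia of skin nerves and the other neural crest class, held at least 0.2% of UMIs in 5 Schwann cell genes, Mbp, Cdh19 and Scn7a among them, with 3 of the 5 detected, and matrix keratinocytes held at least 3 of Hoxc13, Msx2, Dlx3, Lef1 and Msx1. All 8 sums entered 1 fit with edgeR's quasi-likelihood test and Benjamini-Hochberg adjustment over 17222 genes, whose result is given as the edgeR adjusted p. Values are given for mouse 1 and then mouse 2. Where a mouse was left out, only its melanocyte sum was dropped, and its sums of the other classes stayed in the fit. A call lost without either mouse is one that failed when mouse 1 and when mouse 2 was left out in this way. A gene was called when its adjusted p was below 0.01 and its log2 fold change was above 1 or below -1. The 4 melanocyte rule genes are given as values with no test, as are the Schwann and matrix genes against the class they chose, and all tests concern other genes of the same cells, picked by 4 genes that vary along with them. All other kept cells were chosen by leaving out Schwann cells and matrix keratinocytes, so the genes of those 2 rules were low there by construction. They also hold the 23 and 21 cells that missed the melanocyte rule by Mlana alone. Levels in CPM come from 3′ end counts, in which 1 molecule counts once whatever its length, although reads from introns may add to long genes such as Rarb, Oca2, Tyr and Trpm1.

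Compared with all other kept cells, melanocytes had 986 genes higher (5.73% of those tested) and 1027 lower (5.96%). Ptgds, the prostaglandin D2 synthase, reached 15980.1 and 10129.6 CPM against 8.38 and 7.92 CPM (log2 fold change 10.70, SE 0.46, edgeR adjusted p = 8.66e-07), and was found in 91 of 95 and 58 of 58 cells. Npy, a neuropeptide, reached 976 and 575 CPM against 0.852 and 1.14 (log2 fold change 9.66, SE 0.42, edgeR adjusted p = 1.03e-06). Trpm1, a cation channel whose gene also hosts a microRNA of pigment cells, reached 4623 and 3292 CPM against 4.39 and 5.95 (log2 fold change 9.64, SE 0.39, edgeR adjusted p = 8.4e-07). Gpr143, a receptor of the melanosome membrane that sets melanosome size, reached 565 and 457 CPM (9.51 on the log2 scale), and Slc45a2, a transporter that keeps melanosomes at neutral pH, 859.9 and 680.4 CPM (9.43). Tspan10, a tetraspanin, Oca2, a melanosomal anion channel, Fabp7, a fatty acid binding protein of glia and melanoblasts, and Atp6v0d2, a subunit of the proton pump, had log2 fold changes of 9.21, 8.94, 8.93 and 8.92. In both mice the value of each of these genes in melanocytes lay far above all 3 other classes, Fabp7 aside, which Schwann cells also carried (85.8 and 61.6 CPM against 328 and 132).

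Syt4, a synaptotagmin of vesicle fusion, was also called (log2 fold change 9.50, SE 1.82, edgeR adjusted p = 0.0051), but its level differed between the mice. It had 774 UMIs in 86 of 95 melanocytes of mouse 1 and 12 UMIs in 6 of 58 melanocytes of mouse 2, or 776 and 13.4 CPM. The call was lost without mouse 1 (edgeR adjusted p = 0.233 with a log2 fold change of 4.41). The genes with the largest fall were Icam1, an adhesion molecule for leukocytes, at 0 and 2.23 CPM against 55.1 and 51.9 (log2 fold change -5.61, SE 0.52, edgeR adjusted p = 4.25e-05), the chemokine Cxcl13 (-5.23 on the log2 scale), the sebaceous duct keratin Krt79 (-4.21), Tnfaip3, an inhibitor of NF-kB (-4.10), and the unnamed transcript Gm17268 (-4.03). The calls of Cxcl13 and Gm17268 were lost without either mouse. Without melanocytes of mouse 1 or mouse 2, 480 and 609 genes were higher and 292 and 621 lower, with the lone sum assumed to vary like the other classes, and with the mouse as a block 1797 were lower.

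Melanin synthesis genes were among the most abundant in melanocytes. Over all genes tested, 5.73% were higher and 5.96% lower. Of the 16 on the list, 11 were higher in melanocytes than in all other kept cells, 0 were lower, and the median log2 fold change was 7.93, against -0.08 over all genes tested. The same 11 were higher when mouse 1 or mouse 2 was left out. Tyr, the enzyme that starts melanin synthesis, stood at 2352 and 2416 CPM against 3.56 and 7.93 CPM (log2 fold change 8.75, SE 0.49, edgeR adjusted p = 3.44e-06), in 87 of 95 and 56 of 58 cells and in 2.88% and 5.87% of all kept cells outside the class. Slc24a5, an exchanger of the melanosome, stood at 2613 and 1706 CPM (log2 fold change 8.90, SE 0.40, edgeR adjusted p = 8.66e-07), and Oca2 at 2901 and 3005 CPM. Slc24a4, a related exchanger, reached 910.1 and 1209.9 CPM (8.83 on the log2 scale), Mcoln3, a lysosomal cation channel, 226 and 285 CPM (8.06), and Syngr1 1061 and 716 CPM (7.80). Gpnmb, a relative of Pmel, was at 1863 and 1307 CPM, against 24.96 and 31.5 CPM in all other kept cells (5.87) and 232 and 233 CPM in matrix keratinocytes (2.78). Slc3a2, part of amino acid transporters, was at 1257 and 860.2 CPM against 161 and 142 (2.86). Syngr1 shares 535 bases with Rpl3 and Slc24a5 4050 bases with Myef2 on the opposite strand, so that these counts are less certain. Not called were Slc7a11, Atp7a, Cited1, Ctns and Tpcn2, of which Atp7a, the copper pump that loads tyrosinase, stood at 67.2 and 71.5 CPM against 41.4 and 44.1 (edgeR adjusted p = 0.0209).

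**Figure D2:**
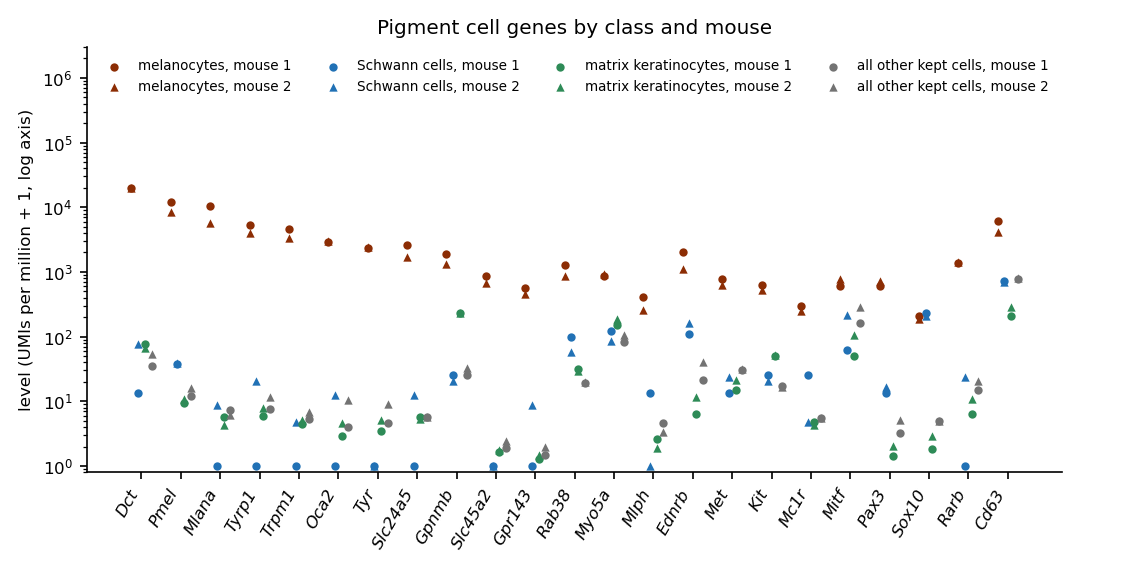
Levels of 23 pigment cell genes in CPM plus 1 on a log axis, with 1 point per class and mouse (circles for mouse 1, triangles for mouse 2). Both melanocyte points lie above those of all other classes for each gene drawn except Sox10, where Schwann cells are at 233 and 208 CPM and melanocytes at 207 and 189 CPM.

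Genes that carry melanosomes to the cell's edge were higher in part. Of 31 genes for melanosome transport and biogenesis, 11 were higher and 0 lower, against 5.73 and 5.96% of all genes tested. The median log2 fold change was 0.76. Rab38, which sorts enzymes to melanosomes, was at 1261 and 857 CPM against 18.4 and 18.8 (log2 fold change 5.89, SE 0.32, edgeR adjusted p = 1.23e-06). The motor complex that holds melanosomes on actin was high in all its parts, with Rab27a at 274 and 245 CPM (6.25 on the log2 scale), Mlph at 411 and 255 CPM (6.86) and Myo5a at 856 and 913 CPM (3.29). Sytl2, an effector of Rab27a (2.87), and Lyst, which sets the size of lysosomes and is the gene of beige mice (1.94), were higher too. Hps3 and Hps4, of 2 complexes that route cargo to melanosomes, were higher at log2 fold changes of 2.66 and 3.04, while Ap3b1, of an adaptor with a like task, was at 131 and 168 CPM against 89.9 and 110.0 (edgeR adjusted p = 0.0553). Without mouse 1 or mouse 2, 8 and 9 of the 31 were higher.

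Genes of the lysosome, the melanosome's kin, were also higher in part. Of 31 genes for lysosomal proteins and the proton pump, 21 were higher and 0 lower. The median log2 fold change was 1.60, and 5.73% of all genes tested were higher. The membrane (V0) subunits on the list were all higher, and so were the catalytic (V1) subunits, Atp6v1h aside. Atp6v0c stood at 1806 and 1328 CPM against 208 and 169 (log2 fold change 3.11, SE 0.29, edgeR adjusted p = 4.56e-05), Atp6v0a1 at 560.3 and 437 CPM (3.61 on the log2 scale) and Atp6v0b at 864 and 673 CPM (2.84). Cd63, a tetraspanin that helps to sort Pmel, was at 6215 and 4134 CPM, against 764 and 796 CPM in all other kept cells (log2 fold change 2.79, SE 0.29, edgeR adjusted p = 7.81e-05) and 207 and 291 CPM in matrix keratinocytes. With mitochondrial genes and numbered Rpl and Rps genes left out, Cd63 ranked 7 in melanocytes by mean level. The protease Ctsd was at 563 and 489 CPM against 176 and 166 (1.67), and Lamp1 at 609 and 497 CPM against 254 and 251 (1.19), a call that was lost without either mouse. Without mouse 1 or mouse 2, 9 and 15 of the 31 were higher.

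Among transcription factors, 10 of the 23 tested were higher and 2 lower, with a median log2 fold change of 1.26. Over all genes tested, 5.73% were higher and 5.96% lower. Sox10, the regulator of neural crest glia and pigment cells, stood at 207 and 189 CPM against 3.97 and 3.93 CPM (log2 fold change 5.70, SE 0.33, edgeR adjusted p = 1.96e-06). Pax3, which acts with Sox10 on Mitf, was at 614 and 716 CPM against 2.18 and 4.19 (log2 fold change 7.75, SE 0.45, edgeR adjusted p = 1.94e-06). Of the 205 Pax3 UMIs of all other kept cells in mouse 1, 133 came from the cells that missed the rule by Mlana alone, and so did 190 of 479 in mouse 2 and 390 of the 1078 Oca2 UMIs of mouse 2. Sox6 was at 228 and 290.5 CPM against 10.8 and 13.6 (4.45 on the log2 scale). Tfeb, a relative of Mitf that drives lysosome genes, was at 289 and 206 CPM against 12.4 and 13.9 (4.29), and Irf4, a partner of Mitf at Tyr, at 139 and 131 CPM against 28.01 and 22.2 (2.48). Foxd3, an early neural crest factor, was at 21.05 and 27.9 CPM in melanocytes and 0.106 and 0.2802 CPM in all other kept cells (6.98), and stood at 49.04 and 80.9 CPM in Schwann cells (not called, edgeR adjusted p = 0.207). Tbx2, Ets1 and Tfap2a had log2 fold changes of 3.26, 2.31 and 1.44. Lef1, counted among the 10, was at 337 and 270.4 CPM against 98.2 and 97.8, but all other kept cells exclude matrix keratinocytes, which Lef1 helped to choose. Mitf itself was at 609 and 779 CPM against 161 and 287 CPM in all other kept cells, which did not pass (log2 fold change 1.68, SE 0.43, edgeR adjusted p = 0.019) but was called with the mouse as a block (log2 fold change 1.74, edgeR adjusted p = 1.83e-07), and differed from matrix keratinocytes, at 48.5 and 105 CPM (log2 fold change 3.20, SE 0.46, edgeR adjusted p = 0.000668), although not without mouse 2 (edgeR adjusted p = 0.0102). Lower were Snai2, a factor of neural crest migration, at 10.02 and 17.9 CPM against 42.9 and 33.7 (-1.43), and Rbpj, the nuclear end of Notch signals (-1.50). The call of Tfap2a was lost without mouse 2, and those of Ets1 and Snai2 without either mouse.

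Receptors of the signals that guide pigment cells were split, with 6 of 24 higher, 6 lower and a median log2 fold change of -1.06. The shares over all genes tested were 5.73% higher and 5.96% lower. Ednrb, the endothelin receptor, was at 2003 and 1102 CPM against 20.6 and 39.6 CPM (log2 fold change 5.75, SE 0.50, edgeR adjusted p = 2.61e-05), in 89 of 95 and 51 of 58 cells. Met, the receptor of HGF, was at 768 and 629 CPM against 29.3 and 30.2 (log2 fold change 4.61, SE 0.27, edgeR adjusted p = 2.03e-06). Kit was at 630.4 and 519 CPM against 16.5 and 15.6 (log2 fold change 5.22, SE 0.24, edgeR adjusted p = 9.37e-07), and Mc1r, which answers melanocortin and agouti, at 299.7 and 245 CPM against 4.58 and 4.47 (log2 fold change 5.96, SE 0.29, edgeR adjusted p = 1.03e-06). Plxnc1, a semaphorin receptor, was at 228 and 215 CPM against 3.22 and 5.46 (5.72 on the log2 scale). Erbb3 was at 36.1 and 33.5 CPM against 15.9 and 13.4 (log2 fold change 1.30, SE 0.27, edgeR adjusted p = 0.00603), a call lost without either mouse. Lower were Axl at 26.1 and 43.6 CPM against 189.5 and 170.0 (-2.34), Tgfbr2 (-2.32), Fgfr1 (-2.42, lost without mouse 1), Fzd4 (-3.04, lost without mouse 1), Il6st (-1.76) and Notch2 (-1.29, lost without mouse 1). Without mouse 1 or mouse 2, 5 receptors were higher each time and 3 and 7 lower. Ngfr, a receptor of neural crest precursors, and Ret are further members that were not called.

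Of 18 genes of the niche, all of them ligands apart from the protease Corin, 0 were higher in melanocytes and 9 lower. Their median log2 fold change was -1.82, and 5.96% of all genes tested were lower. Cxcl12 stood at 15.03 and 45.8 CPM against 173 and 179 (-2.52), Bmp4 at 3.01 and 5.59 CPM against 26.3 and 24.7 (-2.54), Edn1 at 20.05 and 12.3 CPM against 74.4 and 53.8 (-1.92) and Wnt5a at 14.03 and 18.99 CPM against 59.1 and 52.4 (-1.72). All 4 calls were lost without mouse 1, and that of Edn1 also without mouse 2, when 2 and 6 of the 18 were lower. Ligands of the receptors above were also looked up in dermal papilla cells. In the 243 and 244 kept cells with 4 or 5 of the dermal papilla markers Corin, Sostdc1, Rspo4, Crabp1 and Prss35, a set taken after the values were seen, Edn3, the ligand of Ednrb, was at 401 and 458 CPM and found in 57.2 and 61.1% of cells. In the same cells agouti (a), which turns melanocytes to yellow pigment through Mc1r, was at 46.1 and 238 CPM, Kitl, the ligand of Kit, at 34.8 and 46.4 CPM, and Hgf, the ligand of Met, at 4.53 and 10.9 CPM. Pomc, the precursor of melanocortin, had 2 and 6 UMIs there. In matrix keratinocytes Kitl was at 209 and 299 CPM. Agouti shares 75860 bases with Raly on the same strand, which makes its count less certain.

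The study turns on retinoic acid, and genes of retinoid metabolism and signals were listed for that reason. Of the 21 tested, 1 was higher in melanocytes and 5 lower, with a median log2 fold change of -0.56. Over all genes tested, 5.73% were higher and 5.96% lower. The one that was higher was Rarb, a retinoic acid receptor whose gene is itself a known target of retinoic acid, at 1357 and 1409 CPM against 13.9 and 19.9 CPM (log2 fold change 6.40, SE 0.40, edgeR adjusted p = 3.01e-06). It was found in 83 of 95 and 49 of 58 cells, against 7.94% and 11.4% of the kept cells outside the class, and at 0 and 23.1 CPM in Schwann cells and 5.48 and 9.92 CPM in matrix keratinocytes. Both mice gave almost the same value, far from every other class. Rarb shares 4624 bases with Top2b on the opposite strand, and Top2b had 113 and 124 UMIs in melanocytes. Rarg, the receptor common in keratinocytes, was lower at 12.03 and 22.3 CPM against 48.01 and 44.9 (log2 fold change -1.41, SE 0.28, edgeR adjusted p = 0.00474), although not without mouse 1. The retinol carrier Rbp4 (-3.02 on the log2 scale), the dehydrogenases Dhrs9 (-2.51) and Aldh1a1 (-2.94) and the degrading enzyme Cyp26b1 (-2.60) were lower, and these calls were lost without mouse 1, those of Aldh1a1 and Cyp26b1 also without mouse 2. Rxra, the partner receptor that the study deleted in HFSCs of mice, was at 15.03 and 22.3 CPM against 28.2 and 28.03 CPM, which did not pass (edgeR adjusted p = 0.246). Compared with matrix keratinocytes, Fabp5, a carrier of retinoic acid and fatty acids, was lower at 846 and 858 CPM against 4650.4 and 3186 (log2 fold change -2.21, SE 0.35, edgeR adjusted p = 0.00129), and so were Aldh1a3 (-2.51) and Stra6 (-2.75), calls that were lost without mouse 2, and for Fabp5 and Stra6 also without mouse 1.

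Melanocytes in cycle were present in both mice. At least 3 of 10 cell cycle genes (Mki67, Top2a, Ccnb1, Ccna2, Cdk1, Birc5, Ube2c, Cenpf, Aurkb and Nusap1) were detected in 19 of 95 melanocytes of mouse 1, or 20.0% (exact 95% interval 12.5 to 29.5%), and in 21 of 58 of mouse 2, or 36.2% (24.0 to 49.9%). These intervals cover counting error only and do not measure the spread between mice, and cells of mouse 2 were deeper. In matrix keratinocytes the share was 66.6 and 66.7%, and in all other kept cells 19.7 and 22.5%. With each cell thinned to 3000 UMIs, 7 of 82 (8.54%) and 8 of 54 (14.8%) melanocytes with that depth passed. Mki67, the proliferation antigen, stood at 78.2 and 115 CPM, against 343 and 349 CPM in matrix keratinocytes (log2 fold change -1.84, SE 0.29, edgeR adjusted p = 0.00115) and 106 and 106 CPM in all other kept cells (edgeR adjusted p = 0.847). Of 20 cell cycle genes, 12 were lower than in matrix keratinocytes, among them Top2a (-1.41 on the log2 scale) and Ccnd2 (-1.62), but without mouse 1 or mouse 2 only 2 and 1 of the 20 were lower, and the calls of Top2a and Ccnd2 were lost in both and that of Mki67 without mouse 1. Of all genes tested, 5.54% were lower than in matrix keratinocytes. Compared with all other kept cells, 1 of 20 was higher and 0 were lower, against 5.73 and 5.96% of all genes tested. That gene was Cdk2, a cyclin-dependent kinase that Mitf is known to drive, at 269.6 and 237 CPM against 8.68 and 10.2 CPM (log2 fold change 4.80, SE 0.23, edgeR adjusted p = 9.37e-07). Cdk2 shares 837 bases with Pmel on the opposite strand, so its count is uncertain.

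Pigment genes were found in the cycling melanocytes as well. Tyr was at 2083 CPM in the cycling melanocytes of mouse 1 and at 2447 CPM in the others, and at 2135 and 2666 CPM in mouse 2. Ednrb stood at 1467 against 2191 CPM and at 827 against 1344 CPM, and Rarb at 1043 against 1467 CPM and at 1072 against 1706 CPM. For each of these genes the cycling cells had the lower value in both mice. Krt71, an inner root sheath keratin, was higher in the cycling cells, at 123 against 43.4 CPM in mouse 1 and 476 against 16.8 CPM in mouse 2, and Scrublet marked 4 of the 19 cycling cells and 7 of the 76 others of mouse 1 as doublets and 0 in mouse 2. Their part in these differences was not tested. Median UMIs were 11987 against 10567 in mouse 1 and 18672 against 13156 in mouse 2, and with 2 mice no test was made. Genes that end the cycle or keep cells alive gave 0 higher and 2 lower of 12 tested against all other kept cells. Of all genes tested, 5.73% were higher and 5.96% lower. Cdkn1a, a brake on the cycle, was at 15.03 and 20.1 CPM against 67.05 and 54.03 CPM (log2 fold change -1.75, SE 0.28, edgeR adjusted p = 0.00146, lost without either mouse), and Cdkn1c, a related brake, at 19.04 and 10.1 CPM against 187 and 211 (-3.70). Bcl2, which melanocyte stem cells are known to need to survive, was at 113 and 143 CPM against 35.3 and 55.01 CPM in matrix keratinocytes (log2 fold change 1.52, SE 0.33, edgeR adjusted p = 0.00696, lost without either mouse) and 47.2 and 76.6 CPM in all other kept cells (edgeR adjusted p = 0.0346), from which it was called with the mouse as a block (log2 fold change 1.12, edgeR adjusted p = 3.69e-06).

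Compared with Schwann cells, melanocytes had 367 genes higher (2.13%) and 491 lower (2.85%). The 63 Schwann cells held few UMIs, with a median of 3678.5 and 4265 per cell, and the median log2 fold change over all genes was 0.21, which moved to 0.00 when sums were scaled by library size. With library size, 30.8% of the called genes were higher, against 42.8% with TMM. With the mouse as a block, 726 genes were higher and 779 lower, and without melanocytes of mouse 1 or mouse 2, 135 and 188 were higher and 181 and 297 lower. Several of the genes ranked highest had 0 UMIs in Schwann cells, for which a lower bound of the fold is given from 3 counts over the class. Tyr was at least 271-fold higher, Slc24a4 at least 119.6-fold, Npy at least 89.4-fold and Slc45a2 at least 88.1-fold. Mybpc1, a myosin binding protein, was at 426 and 315 CPM and at least 42.5-fold higher, and Cpne4, a copine, at 158 and 282 CPM and at least 24.6-fold, a call that was lost without mouse 2. Atp6v0d2, Rab27a, Mcoln3 and Tspan10 had bounds of 44.8-, 29.6-, 28.8- and 27.2-fold.

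The 5 genes ranked lowest were as follows. Mal, a myelin lipid-binding protein, had 0 UMIs in melanocytes and 1324 and 967 CPM in Schwann cells, so it was at least 664-fold lower. Kcna1, a potassium channel, was at least 538-fold lower, Cldn19, a claudin of peripheral myelin, at least 252-fold, Sfrp5, a Wnt inhibitor, at least 213-fold and the kinase Aatk at least 191-fold. Sox10 and Sox6, factors common to the neural crest, did not pass here. Sox10 was at 207 and 189 CPM in melanocytes and 233 and 208 CPM in Schwann cells (log2 fold change 0.13, SE 0.33, edgeR adjusted p = 0.876), with a direction that turned under 5 of 12 other settings. Sox6 was at 228 and 290.5 CPM in melanocytes against 307 and 319.8 CPM in Schwann cells (edgeR adjusted p = 1), and its direction turned under 4. Pax3 (log2 fold change 5.75, SE 0.60, edgeR adjusted p = 0.000218), Lef1 (2.48 on the log2 scale), Irf4 (3.47) and Tfeb (2.96) were the 4 of 23 factors higher in melanocytes, and 0 were lower. Over all genes tested, 2.13% were higher and 2.85% lower. The calls of Lef1 and Irf4 were lost without mouse 1, and that of Irf4 also without mouse 2. Erbb3, the neuregulin receptor that Schwann cells depend on, was lower in melanocytes, at 36.1 and 33.5 against 233 and 127 CPM (log2 fold change -1.96, SE 0.32, edgeR adjusted p = 0.00317, lost without either mouse). Rxrg, a retinoid X receptor, was at 6.01 and 3.35 CPM against 110.3 and 69.4 CPM in Schwann cells (log2 fold change -3.88, SE 0.74, edgeR adjusted p = 0.0076, lost without either mouse). Cdkn1a, Cdkn1b and Cd9 were lower as well (log2 fold changes -4.06, -1.38 and -4.24), that of Cdkn1b not without either mouse.

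Of 17 neural crest and glial genes tested against all other kept cells, 4 were higher and 7 lower, against 5.73 and 5.96% of all genes tested. Cdh19, a cadherin of Schwann precursors, was at 51.1 and 82.7 CPM in melanocytes, 0.703 and 1.98 CPM in all other kept cells and 490.4 and 767 CPM in Schwann cells. Cdh19 helped to choose the Schwann cells, which are left out of all other kept cells, so it is given as values. The count of 4 holds it, and the count of 7 holds Mbp and Scn7a, which helped to choose the same cells, so neither count is free of the rule. Sparc, a matrix protein, was at 1456 and 1519 CPM against 7359 and 8419.5 CPM (-2.36) and 8031 and 7648 CPM in Schwann cells. Over all genes tested, 2.13% were higher and 2.85% lower than in Schwann cells. Compared with Schwann cells, 0 of 12 were higher and 4 lower, namely L1cam, Gpm6b, Ptn and Sparc, with log2 fold changes of -5.44, -1.93, -3.81 and -2.11. Of these, Gpm6b and Ptn were not called without either mouse, nor Sparc without mouse 1.

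Compared with matrix keratinocytes, their neighbors in the bulb, melanocytes had 1297 genes higher (7.53%) and 954 lower (5.54%). The median log2 fold change over all genes was -0.20. The genes that led were largely those named above, with Ptgds at log2 fold change 11.02 (edgeR adjusted p = 5.09e-07), Gpr143 at 10.47, Atp6v0d2 at 10.13, Slc45a2 at 10.09, Oca2 at 10.08, Npy at 10.06, Trpm1 at 10.04, Pax3 at 9.86 and Fabp7 at 9.80. Syt4, at 10.47, was again not called without mouse 1 (edgeR adjusted p = 0.145). The 5 genes ranked lowest follow. Krt35, a keratin of the hair cortex, was at 39.1 and 7.82 CPM against 574 and 271 CPM (log2 fold change -4.15, SE 0.64, edgeR adjusted p = 0.00113, lost without mouse 2), Tchh, the trichohyalin of the root sheath, at 28.1 and 7.82 CPM against 275 and 233 (-3.79 on the log2 scale), Dapl1 at 19.04 and 6.703 CPM against 437 and 211 (-4.64), the metallothionein Mt4 at 4.01 and 2.23 CPM against 159 and 86.2 (-5.29, lost without either mouse), and the keratin associated protein Krtap8-1 (-3.68, lost without mouse 2). Without melanocytes of mouse 1 or mouse 2, 631 and 719 genes were higher and 157 and 391 lower, and with the mouse as a block 1630 were lower.

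Adhesion genes were called in both directions. Of 19, 5 were higher and 2 lower than in all other kept cells, with a median log2 fold change of -0.49. Among all genes tested, 5.73% were higher and 5.96% lower. Cdh3, the P-cadherin of the hair bulb, was at 306 and 240.2 CPM against 58.4 and 66.2 (log2 fold change 2.19, SE 0.22, edgeR adjusted p = 7.16e-05) and did not pass against matrix keratinocytes at 148 and 177 CPM (edgeR adjusted p = 0.0246). Cadm1 was at 452 and 379.8 CPM against 48.6 and 51.95 (3.10 on the log2 scale), Cd44, a receptor for hyaluronan, at 384 and 399 CPM against 131 and 153 (1.51), and the neural cadherin Cdh2 at 57.1 and 68.1 CPM against 10.01 and 11.7 (2.57, lost without either mouse). Cd9 was lower at 69.2 and 111 CPM against 426 and 364 (-2.10). The epithelial adhesion molecule Epcam was at 10.02 and 30.2 CPM against 171 and 128 CPM in matrix keratinocytes (-2.93, lost without either mouse).

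Of 20 antioxidant genes, 4 were higher and 1 lower, with a median log2 fold change of -0.01, and with mouse 1 or mouse 2 left out 1 was higher and 0 were lower each time. Over all genes tested, 5.73% were higher and 5.96% lower. Gstp1, a glutathione transferase, was at 328 and 293 CPM against 28.4 and 23.1 CPM (log2 fold change 3.64, SE 0.28, edgeR adjusted p = 1.26e-05). Ftl1, the light chain of ferritin (1.48 on the log2 scale), Txn1, thioredoxin (1.27), Prdx1 (1.14) and Srxn1 (-2.74) were called only with both mice. Immediate early and stress genes were lower. Of 14, 11 were lower and 0 higher, with a median log2 fold change of -2.24, and 6 were lower each time with mouse 1 or mouse 2 left out. Fos was at 215 and 201 CPM against 1295 and 1148 CPM in all other kept cells (log2 fold change -2.50, SE 0.23, edgeR adjusted p = 4.56e-05), 1839 and 1395 CPM in Schwann cells and 464 and 451 CPM in matrix keratinocytes, and Egr1 at 84.2 and 102 CPM against 737 and 654 (-2.86). Junb (-2.40) and Atf3 (-2.66) were lower in the same way, and Junb shares 351 bases with Prdx2 on the opposite strand. Such genes are known to answer to tissue digestion, and the part of dissociation in these values was not tested.

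**Figure D3:**
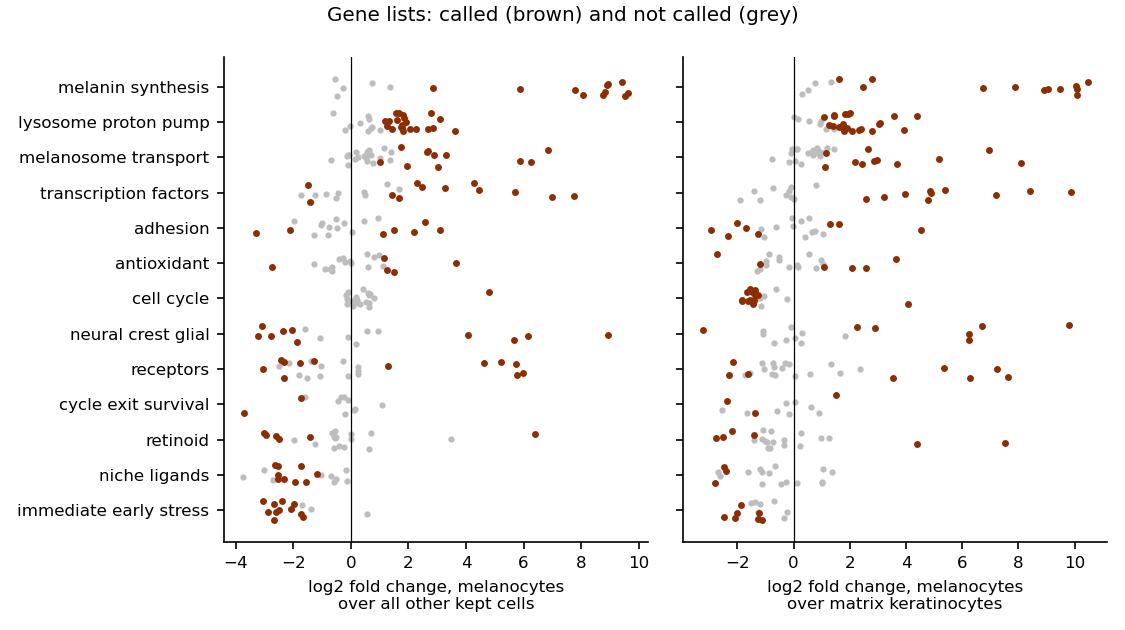
Log2 fold changes of the genes of 13 lists in melanocytes over all other kept cells (left) and over matrix keratinocytes (right), 1 point per gene, brown where called and grey where not. Genes with 0 UMIs in melanocytes and those that chose a class are left out. Melanin synthesis lies highest, the lysosome list lies to the right of 0 for most genes, and cell cycle genes are called lower only on the right.

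The cells that missed the rule by Mlana alone, 23 in mouse 1 and 21 in mouse 2, differed from melanocytes in more than Mlana. They were shallower, with medians of 3181 and 4911 UMIs, and held medians of 0.772 and 1.16% of UMIs in the rule genes. Dct, which the rule read, was at 6097 and 7637 CPM in them, against 20129.5 and 19592 CPM in melanocytes. Trpm1 was at 178 and 786 CPM against 4623 and 3292, Ptgds at 232 and 290.2 CPM against 15980 and 10129.6, and Ednrb at 191 and 218 CPM against 2003 and 1102. Pax3 was at 1818 and 1149 CPM against 614 and 716, Bcl2 at 1039 and 489.8 CPM against 113 and 143, and Vim, the filament of mesenchymal cells, at 3199 and 1887 CPM against 205 and 403. Sox10 was at 273 and 121 CPM against 207 and 189, and Mitf at 902 and 641 CPM against 609 and 779. Of the genes outside the rule, Trpm1, Ptgds and Ednrb were thus lower in these cells than in the melanocytes of either mouse. Pax3, Bcl2 and Vim were higher, while Sox10 and Mitf overlapped. The collagen Col3a1, a fibroblast gene, was also higher in each mouse, at 2174 and 3809 CPM against 1073 and 2036, and so was the nuclear RNA Malat1, at 43786 and 34858 CPM against 23526 and 23298. Their part in the other differences was not tested. Oca2 in mouse 2 stood at 2358 CPM, but 177 of its 390 UMIs came from 1 cell, so the sum does not describe all of these cells. At least 3 cycle genes were detected in 0 of 23 and 4 of 21. Their Mlana level, 178 and 66.5 CPM, and that of the other rule genes was set by the rule, and no test was made as the cells were defined from the same counts.

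**Figure D4:**
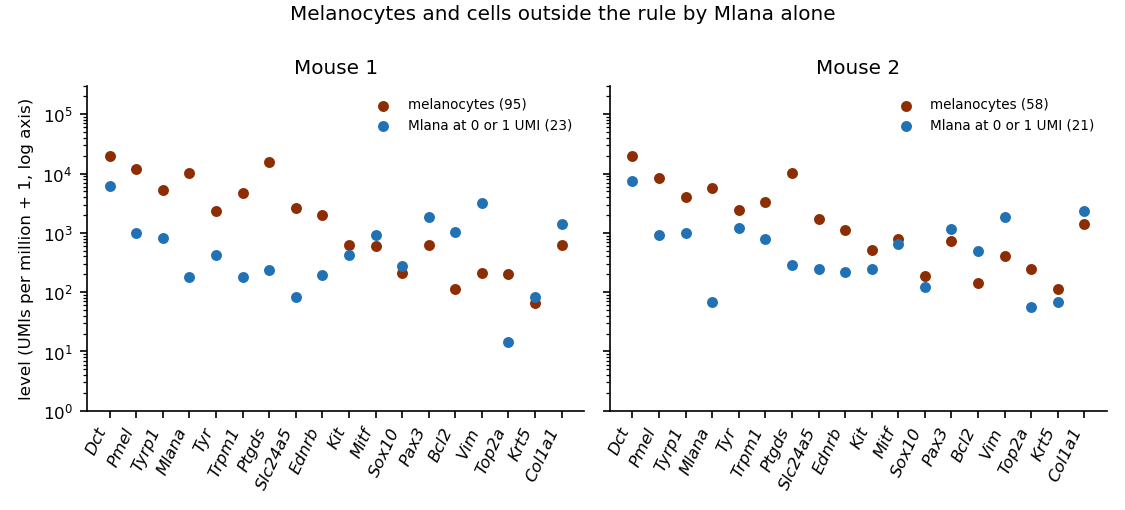
Levels of 18 genes in CPM plus 1 (log axis) in the melanocytes (brown, 95 and 58 cells) and in the cells that missed the rule by Mlana alone (blue, 23 and 21 cells), with mouse 1 on the left and mouse 2 on the right. Ptgds and Ednrb are lower, and Pax3, Bcl2 and Vim higher, in the blue cells of both mice.

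Melanocyte levels of the 2 mice were close for most genes. Of 1773 genes with a mean of at least 100 CPM in melanocytes, 44 differed by over 1 on the log2 scale (pseudocount 1) and 8 by over 3, with a median of 0.03 for mouse 1 over mouse 2. With 1 library per mouse these are values with no test. Syt4 was the one that was higher by over 3 in mouse 1. In all other kept cells it had 104 UMIs in mouse 1 and 9 in mouse 2, and in matrix keratinocytes 25 and 0. Fstl4, a secreted follistatin-like protein, stood at 788 and 293 CPM, and Selenop, a selenium carrier, at 1912 and 759 CPM, while in all other kept cells Fstl4 was at 3.41 and 3.21 CPM and Selenop at 158 and 239 CPM. Cwc22, a splicing factor, was higher in mouse 2 in melanocytes (63.1 and 485 CPM) and in all other kept cells (78.3 and 536 CPM). The other 7 genes past 3 were blood and muscle transcripts of mouse 2, and 1403 of 1403 Ighg2b, 221 of 221 Jchain and 2078 of 2087 Igkc UMIs came from 1 cell each.

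**Figure D5:**
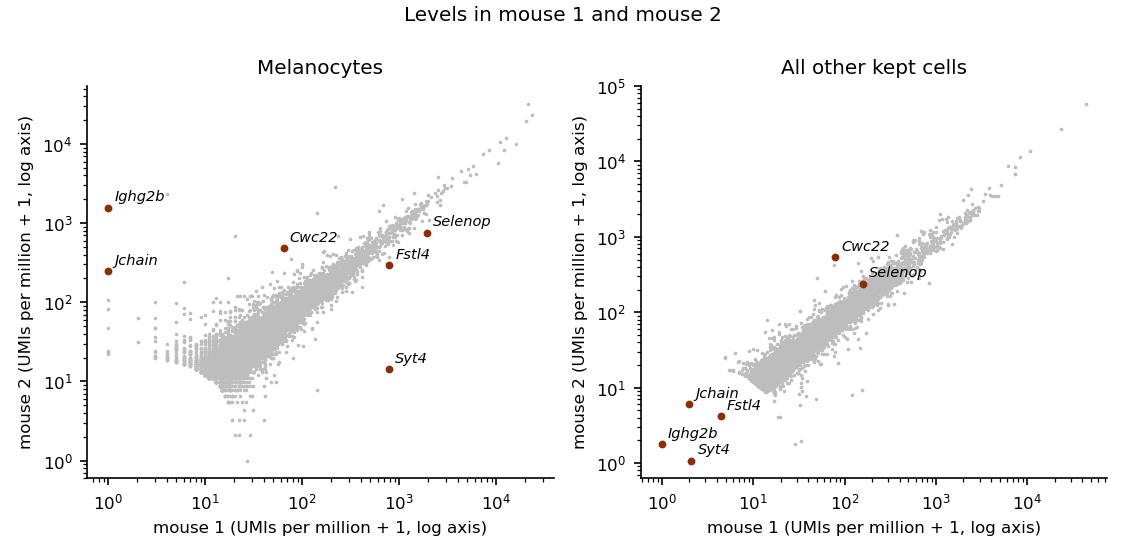
Level of each gene with a mean of at least 10 CPM in mouse 1 (x) and mouse 2 (y), in CPM plus 1 on log axes, in melanocytes (left) and all other kept cells (right). Syt4 lies far below the diagonal in melanocytes, and Ighg2b and Jchain, from 1 cell, far above it.

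Cultures of HFSCs made from the same mice held no cell that passed the rule. Mouse 1 gave 0 of 262 kept cells, which allows a share of up to 1.15%, and mouse 2 gave 0 of 94, which allows up to 3.19%. Dct, Tyrp1 and Kit had 0 UMIs in these cells of both mice, while Mitf, which other cells also use, had 168 and 68. In the 8 RNA-seq libraries of cultured HFSCs, with 25150162 to 35879630 counts each, Tyr and Kit had 0 counts and Dct at most 1, while Mitf had 96 to 150.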

How the data were processed

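Single cells of back skin and of cultured HFSCs were measured with 10x 3′ chemistry (V3). Per the file headers and the study's methods, the authors made the deposited UMI count matrices with Cell Ranger 7.0.0 (submitters' notes: 7.0.1) against mm10, before their own steps for free RNA and doublets, and whether introns were counted is not given in the sources used here. For RNA-seq of HFSCs the authors deposited estimated counts from Salmon 1.4.0, and these were looked up only for pigment genes. Scrublet was run with scanpy 1.11.5, and UMIs were summed per mouse and class with scipy 1.17.1. The sums were tested with edgeR 4.0.16 in R 4.3.3 (quasi-likelihood, TMM, filterByExpr, no mouse term), with DESeq2 1.42.0 as an alternative, after a check on simulated data. Counting error of 58 to 95 cells and 2 mice limits precision.

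Members and lists were chosen with earlier results of these data known. Named genes were list members and, per comparison, the 10 called genes highest and 5 lowest in log2 fold change among those with at least 50 CPM in the higher class and classes that did not overlap, class-choosing genes left out. Syt4, Fstl4, Selenop and Cwc22 between mice, and Vim, Col3a1 and Malat1 in the cells with low Mlana, were named after their values were seen. Sums of the same mouse are paired by the animal: differences between mice over 6505 genes correlated at 0.119 between melanocytes and Schwann cells, 0.433 with matrix keratinocytes and 0.393 with all other kept cells. A fold against a class at 0 used 3 counts over the class. Some genes are not reported here.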

Additional observations from a re-analysis of the deposited data

Results flagged for a closer look

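Pigment genes were seen in the cultures of HFSCs, which took no part in the comparisons and where no cell passed the rule. Among the 8 RNA-seq libraries, the highest count was 18 for Pmel, 10 for Tyrp1 and 5 for Mlana. In the kept cells of cultured HFSC mouse 1, Pmel had 5 UMIs and Mlana 13 UMIs. These values lie above the 3 counts that a count of 0 allows, and their source was not tested.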

How the results depend on the processing

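Of 174 gene results under 12 alternatives (2088 in all), 1937 kept direction and side of the threshold, 132 lost the call, 8 gained it and 11 turned in direction, none of which had been called. With no filter on low counts, 2170 genes were lower than in all other kept cells, 619 higher and 1026 lower than in Schwann cells, and 2071 lower than in matrix keratinocytes. With the mouse as a replicate block, 1797 were lower than in all other kept cells, 726 higher and 779 lower than in Schwann cells, and 1630 lower than in matrix keratinocytes. With 1000 or more genes and under 5% mitochondrial UMIs, which leaves fewer cells, 462 were higher and 573 lower than in all other kept cells, 173 and 315 than in Schwann cells, and 645 and 264 than in matrix keratinocytes. At an adjusted p under 0.05 with no minimum fold, the counts were 1740 and 1978, 854 and 861, and 2076 and 2217. DESeq2 gave 917 lower than in Schwann cells. For this setting and for the filter and the block the cause was not tested. Without 1 melanocyte replicate, which leaves 1 sum, 480 to 609 were higher and 292 to 621 lower than in all other kept cells, 135 to 188 and 181 to 297 than in Schwann cells, and 631 to 719 and 157 to 391 than in matrix keratinocytes. Melanocytes were 0.816 and 0.568% of kept cells with no Mlana minimum and 0.204 and 0.192% under the stricter limits on genes and mitochondrial UMIs. Cycling shares were 45.3 and 56.9% at 2 genes and 8.54 and 14.8% thinned to 3000 UMIs. The log2 fold change of Sox10 over Schwann cells was -0.13 with library sizes, -0.021 with no filter, -0.34 without cells over 2 times the median UMI count, -0.23 under the stricter limits and -0.024 to 0.073 without 1 replicate. That of Sox6 was 0.030 with the block, 0.17 under the stricter limits, 0.0086 with all 4 rule genes and 0.5% of UMIs, and -0.33 to 0.062 without 1 replicate, and that of Mki67 over all other kept cells 0.28 under the stricter limits and -0.51 to 0.021 without 1 replicate. The 2% rule was chosen after seeing the data and gave 1112 and 1186, 460 and 553, and 1362 and 1143 genes. At 18 Schwann cells in mouse 1, genes of few UMIs could not be compared at this depth.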

Other observations

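Apart from the listed genes, Chsy3, an enzyme of chondroitin sulfate synthesis, and Mgll, a lipase of monoglycerides, were abundant in melanocytes. They stood among the 20 most abundant genes once mitochondrial genes and numbered Rpl and Rps genes were left out. Chsy3 was at 2528 and 3831 CPM, against 38.7 and 58.8 CPM in all other kept cells, and Mgll at 2632 and 1938 CPM against 85.3 and 66.5 CPM. Both were named after their values were seen.

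Hemoglobin and immunoglobulin transcripts of the melanocytes of mouse 2 came mostly from single cells. One cell gave 603 of 617 UMIs of Hbb-bt and 2484 of 2565 of Hbb-bs, and 1 cell gave 172 of 182 UMIs of the muscle actin Acta1.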
